A study of Mus musculus with 12 samples.

Results

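The 10 genes described here encode the machinery that makes and loads peptides for MHC class I in mouse cells. They are H2-K1 and H2-D1, the 2 classical heavy chains of this strain, B2m, the light chain, Tap1, Tap2 and Tapbp, which move and load the peptides, Nlrc5, a transcriptional activator of the class I genes, and Psmb8, Psmb9 and Psmb10, the catalytic subunits of the immunoproteasome. They were chosen by name from the 16352 genes of the deposited count table, all 10 were found there, and all 10 were among the 12404 genes kept for testing. RNA was sequenced from primary CD8 T cells of C57BL/6 mouse spleen in 12 libraries, 3 for each pairing of a genotype, WT or Trmt61A-cKO, with a time, 0 h or 48 h. Trmt61A-cKO, written cKO below, is a conditional knockout of Trmt61a, the catalytic subunit of a tRNA m1A methyltransferase. The sources used here give no age, no Cre line or promoter, and no word on the treatment of the cells between 0 h and 48 h. They do not say whether libraries of a group came from separate mice, so a p-value here measures the spread between libraries, part of which may be technical.

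Class I molecules show peptides of a cell's own proteins to CD8 T cells, and T cells carry them as nearly all nucleated cells do. The proteasome cuts proteins into peptides, the TAP transporter carries these into the endoplasmic reticulum, and tapasin holds the transporter next to empty heavy chains until a peptide of good fit is bound. Interferon gamma is known to raise the whole set, and in immune cells the subunits Psmb8, Psmb9 and Psmb10 take the place of Psmb5, Psmb6 and Psmb7 in newly built 20S cores. NLRC5 acts together with the RFX, CREB/ATF and NF-Y factors at a conserved module of class I promoters, and NF-kappaB and IRF factors bind upstream of it.

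The promoters of the 3 chains are shown because these 3 genes had the highest levels and fell together, and the stretch between Psmb9 and Tap1 because these neighbours are read in opposite directions from it. Sequences are from RefSeq on GRCm38.p6, which is not the build of the counts (GRCm39), so the coordinates serve only to place the sequences. RefSeq promoters were matched by symbol for 8 of the 10 genes, Tap2 and Nlrc5 being the others. Each chain is given as the 250 bases before a RefSeq start, 5′ to 3′ on the gene's strand: chr17:34000334-34000583 on the minus strand for H2-K1, chr17:35262844-35263093 on the plus strand for H2-D1 and chr2:122147437-122147686 on the plus strand for B2m. The 225 bases between the starts of Psmb9 and Tap1 lie at chr17:34187331-34187555 and are given on the plus strand, the strand of Tap1. Capitals mark the motif matches described after the sequences.
H2-K1: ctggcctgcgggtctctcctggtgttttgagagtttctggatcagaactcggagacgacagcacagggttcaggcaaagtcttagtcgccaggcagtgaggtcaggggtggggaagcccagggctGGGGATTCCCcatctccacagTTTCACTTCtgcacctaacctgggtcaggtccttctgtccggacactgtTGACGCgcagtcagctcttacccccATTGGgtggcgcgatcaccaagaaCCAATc
H2-D1: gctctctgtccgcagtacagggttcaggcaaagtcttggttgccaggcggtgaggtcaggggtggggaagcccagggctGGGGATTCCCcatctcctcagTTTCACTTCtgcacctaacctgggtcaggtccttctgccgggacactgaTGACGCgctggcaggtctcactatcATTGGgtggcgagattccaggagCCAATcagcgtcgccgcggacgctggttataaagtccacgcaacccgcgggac
B2m: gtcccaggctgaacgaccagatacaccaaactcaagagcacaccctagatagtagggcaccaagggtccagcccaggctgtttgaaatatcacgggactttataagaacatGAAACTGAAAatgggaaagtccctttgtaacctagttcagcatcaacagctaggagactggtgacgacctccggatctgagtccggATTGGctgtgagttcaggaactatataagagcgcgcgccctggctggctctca
Between Psmb9 and Tap1: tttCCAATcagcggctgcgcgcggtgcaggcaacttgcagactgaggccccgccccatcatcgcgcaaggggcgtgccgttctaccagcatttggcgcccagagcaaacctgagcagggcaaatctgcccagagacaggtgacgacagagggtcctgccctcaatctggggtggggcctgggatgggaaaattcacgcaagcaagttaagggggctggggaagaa

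The H2-K1 and H2-D1 stretches could be aligned over 203 bases, of which 177 were identical (87.2%). Both hold, as their first run of capitals, the kappa B site known from the enhancer A of class I genes, whose exact letters were found on either strand in 28 of 32851 promoter windows of this length (0.0852%). Both also hold TGACGC, the X2 box bound by CREB/ATF factors (6.12% of windows), and GAANNGAAA, read here on the other strand as TTTCACTTC (6.31% of windows). That last spacing of the interferon response element was added after the sequences had been read. B2m holds the standard spacing of that element, with 1 more base, as its first run of capitals (2.98% of windows). The inverted CCAAT box ATTGG, common to 33.8% of windows, was found at 6 of the 8 genes, H2-K1, H2-D1, B2m, Tap1, Psmb9 and Tapbp. At Psmb9 and Tap1 it is the same match, next to the Psmb9 start. The letters TGACGT (6.47% of windows) were found at none of the 8. These motifs were searched on both strands, and none of the matches at the same gene overlapped.

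Total counts per library ran from 34341847 to 40270659, and the CD8 identity of the cells was plain in the counts: Cd8a averaged 1414 and 1500 CPM (a gene's count scaled to a common library size, with TMM factors) at 0 h for WT and cKO, then 687 and 694 CPM at 48 h, and Cd8b1 stayed at or above 297 CPM in every library. The targeted gene, Trmt61a, goes against one label. Its level was 27.4, 29.8 and 26.3 CPM for WT against 28.1, 0.807 and 1.88 CPM for cKO at 0 h, and 42.0, 38.2 and 34.8 CPM for WT against 42.5, 0.956 and 1.10 CPM for cKO at 48 h. The libraries labelled cKO replicate 1 thus held the WT level at both times (101% and 111% of the WT mean), and the genotype comparisons of the 10 genes below are also given without them. WT replicate 3 had 0 counts of the Y-linked genes Uty, Kdm5d and Eif2s3y at both times, whereas each of these genes had 694 or more counts elsewhere. In bulk RNA, fewer cells of a type and less RNA per cell cannot be told apart, which touches every level and change given here. CPM is also a share of a library's counts, so a gene said to fall here need not have less RNA per cell.

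B2m had the highest level per length of the 10 genes in all 4 groups, and the 2 heavy chains stood next. Per kb of exon in GENCODE vM21, B2m averaged 2796 ± 108 CPM, H2-K1 1413 ± 49.1 CPM and H2-D1 1134 ± 14.2 CPM in WT at 0 h (SD, n = 3, as for every level below). The ranges of these 3 did not overlap. Far below them, in WT at 0 h, came Tapbp at 132 CPM per kb, Psmb8 at 117, Psmb10 at 94.9, Tap2 at 92.8, Tap1 at 73.9, Nlrc5 at 55.1 and Psmb9 at 38.6. The ranges of Tapbp and Psmb8 overlapped, as did those of Psmb10 and Tap2. The length of a gene here pooled the exons of all its annotated transcripts. For Psmb8 it was 3381 bases, against 1628 in its longest coding transcript, and for Tapbp 3628 against 2898. B2m had 860 bases either way, so the order of the genes can depend on the length taken. At 48 h in WT B2m was at 1579 ± 43.4 CPM per kb, while H2-D1 at 608 ± 6.22 and H2-K1 at 602 ± 12.9 had overlapping ranges. Among all 16352 genes ranked by mean CPM, H2-K1 was number 8 in both genotypes at 0 h, and number 35 in WT and 25 in cKO at 48 h. The 10 genes together summed to 11591 to 12086 CPM in WT and 12440 to 13524 CPM in cKO at 0 h, and to 6638 to 6901 CPM in WT and 6637 to 7568 CPM in cKO at 48 h.

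**Figure D1:**
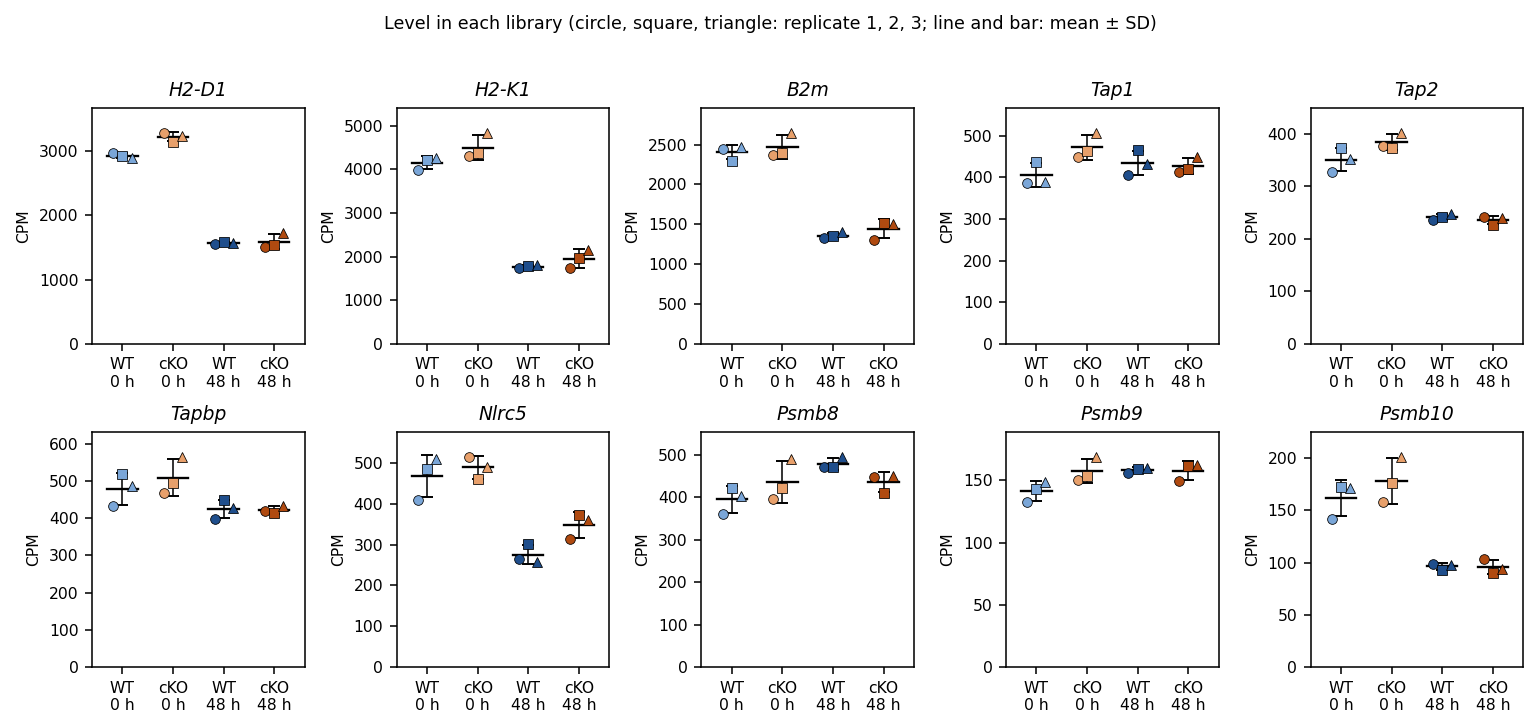
Level of each of the 10 genes (CPM, vertical axis from 0) in the 12 libraries, by group. Symbols are libraries (circle, square and triangle for replicates 1, 2 and 3), and the line and bar are the mean ± SD of 3 libraries. H2-K1, H2-D1, B2m, Tap2, Nlrc5 and Psmb10 lie lower at 48 h than at 0 h in every library, whereas the times overlap for Tap1 in WT and for Psmb8 and Psmb9 in cKO.

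The comparison of 48 h with 0 h asks how the class I set changed over this interval within each genotype. In WT, 6 of the 10 genes fell and 2 rose, and in cKO 7 fell and none rose (edgeR quasi-likelihood test, Benjamini-Hochberg adjusted p under 0.05 over 12404 genes). Across all tested genes 38.4% fell and 36.9% rose in WT, and 36.2% fell and 36.4% rose in cKO. In WT the libraries of the times did not overlap for 8 of the 10, 6 lower and 2 higher, beside 39.9% of all genes lower and 39% higher. In cKO 8 of the 10 were lower without overlap and none higher, beside 37.5% and 37.3% of all genes. The median log2 fold change of the 10 was -0.64 in WT and -0.59 in cKO, beside -0.02 for all tested genes in each genotype. Leaving out both libraries labelled cKO replicate 1 gave the same counts, beside 37.2% of genes higher and 38.7% lower in WT and 33.6% higher and 32.8% lower in cKO. A fit with neither library of WT replicate 3 gave 6 lower and 1 higher in WT, and the share of all genes in that fit is not given here.

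The heavy chains had the largest falls of the 10 genes in both genotypes. H2-K1, which encodes the K heavy chain, stood at 3989.9, 4203 and 4265 CPM for WT against 4292, 4365 and 4824 CPM for cKO at 0 h. At 48 h it stood at 1728, 1780.1 and 1802 CPM for WT against 1731, 1974 and 2156 CPM for cKO. Every 48 h library thus lay far below the lowest 0 h library. Its log2 fold change was -1.23 ± 0.07 in WT (edgeR adjusted p = 1.06e-09) and -1.20 ± 0.07 in cKO (edgeR adjusted p = 1.73e-09), where ± is the standard error. H2-D1, the D heavy chain, had 2964, 2918 and 2892 CPM for WT against 3275, 3139 and 3236 CPM for cKO at 0 h. At 48 h its level was 1557, 1587 and 1564 CPM for WT against 1513, 1529.5 and 1721 CPM for cKO. The libraries of the same time differed little beside the step between the times, and the log2 fold change was -0.90 ± 0.055 in WT (edgeR adjusted p = 1.49e-09) and -1.02 ± 0.055 in cKO (edgeR adjusted p = 4.92e-10). Of the 100-base stretches of the longest coding H2-D1 transcript, 4.64% also occur in other genes, chiefly H2-Q1, and none of those of H2-K1 do, so few reads of either could be shared with copies.

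B2m, whose product pairs with all class I heavy chains, fell as well. It had 2446, 2299 and 2470.05 CPM for WT against 2373, 2396 and 2641 CPM for cKO at 0 h, and 1323, 1355 and 1397 CPM for WT against 1306, 1516 and 1503 CPM for cKO at 48 h. The 2 times did not overlap in either genotype. The log2 fold change was -0.82 ± 0.07 in WT (edgeR adjusted p = 3.16e-08) and -0.78 ± 0.07 in cKO (edgeR adjusted p = 7.50e-08). The ratio of summed H2-K1 and H2-D1 counts to B2m counts, which needs no library scaling, was 2.84, 3.10 and 2.90 in WT and 3.19, 3.13 and 3.05 in cKO at 0 h. It was 2.48, 2.48 and 2.41 in WT and 2.48, 2.31 and 2.58 in cKO at 48 h, below every 0 h library. Over both genotypes the ratio changed by -0.30 on the log2 scale (p = 0.005, exact two-sided permutation test with time permuted within genotype, the smallest p its 400 arrangements allow, adjusted p = 0.005 over 4 ratios). That test took the libraries of the 2 times as unpaired. If libraries of the same number are paired over time, which no label says, this p is too small.

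Of the peptide transport and loading genes, Tap2 fell, Tapbp fell in cKO, and Tap1 was not called in either genotype. Tap1 and Tap2 encode the partner chains of the transporter. Tap2 had 328, 373 and 352 CPM for WT against 378, 374 and 401 CPM for cKO at 0 h, and 236, 241 and 247 CPM for WT against 242, 227 and 239 CPM for cKO at 48 h. All 48 h libraries lay below all 0 h libraries, with a log2 fold change of -0.54 ± 0.06 in WT (edgeR adjusted p = 2.16e-06) and -0.70 ± 0.06 in cKO (edgeR adjusted p = 1.45e-07). Tap1 had 387, 438 and 389 CPM for WT against 449, 462 and 506 CPM for cKO at 0 h, and 406, 465 and 431 CPM for WT against 413, 420.2 and 449 CPM for cKO at 48 h. Its WT libraries of the 2 times overlapped, while the cKO libraries at 48 h lay just below those at 0 h. The log2 fold change was 0.10 ± 0.07 in WT (edgeR adjusted p = 0.228), or -0.0026 with upper-quartile scaling, and -0.15 ± 0.07 in cKO (edgeR adjusted p = 0.0914). That scaling shifted the median of all genes by -0.10 in WT and by -0.09 in cKO on the log2 scale, and with it Tap1 was called lower in cKO (-0.24, edgeR adjusted p = 0.00885).

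Tapbp encodes tapasin, the bridge between transporter and heavy chain. It had 433, 517 and 487 CPM for WT against 469, 493 and 565 CPM for cKO at 0 h, and 398, 448 and 428 CPM for WT against 418, 414 and 434 CPM for cKO at 48 h. The WT ranges overlapped and the cKO ranges did not. Its log2 fold change was -0.17 ± 0.08 in WT (edgeR adjusted p = 0.0673) and -0.27 ± 0.08 in cKO (edgeR adjusted p = 0.00828). The WT value passed the threshold with upper-quartile scaling (-0.28, edgeR adjusted p = 0.00533), without WT replicate 1 at 0 h (-0.24, edgeR adjusted p = 0.019) and without cKO replicate 3 at 0 h (-0.17, edgeR adjusted p = 0.0462). The cKO call was lost without cKO replicate 3 at 0 h (-0.19, edgeR adjusted p = 0.0552). Exons on the opposite strand cover 24.9% of Tapbp (Gm19412) and 14.1% of Tap2 (Gm15821) in GENCODE vM21, and no strand setting of the counting is given in the sources used here, so reads of such pairs cannot be told apart.

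Nlrc5, the class I transactivator, fell in both genotypes. Its level was 409, 485 and 509 CPM for WT against 514, 460.4 and 490.1 CPM for cKO at 0 h. At 48 h it was 265, 302 and 258 CPM for WT against 313, 373 and 360 CPM for cKO. The WT and cKO libraries were interleaved at 0 h and separate at 48 h, where all 3 cKO libraries lay above all 3 WT libraries. The log2 fold change over time was -0.77 ± 0.09 in WT (edgeR adjusted p = 3.02e-06) and -0.49 ± 0.09 in cKO (edgeR adjusted p = 0.000275).

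The 3 immunoproteasome subunits did not all move alike, Psmb10 going apart from Psmb8 and Psmb9. Psmb10, the trypsin-like subunit, fell in both genotypes. Its level went from 142, 172 and 172 CPM to 98.7, 93.0 and 97.6 CPM in WT. In cKO it went from 157, 176 and 201 CPM to 104, 90.0 and 94.2 CPM. No 48 h library reached the lowest 0 h library, and the log2 fold change was -0.75 ± 0.10 in WT (edgeR adjusted p = 7.05e-06) and -0.89 ± 0.10 in cKO (edgeR adjusted p = 1.24e-06). Psmb8, the chymotrypsin-like subunit, went from 361, 422 and 402 CPM to 471, 472 and 495 CPM in WT. In cKO it had 396, 422 and 491 CPM at 0 h and 448, 409 and 451 CPM at 48 h. Thus the WT libraries of the 2 times were separate and the cKO libraries overlapped. Psmb8 rose in WT by 0.28 ± 0.08 (edgeR adjusted p = 0.00724) and was at -0.00225 ± 0.083 in cKO (edgeR adjusted p = 0.982). With upper-quartile scaling the WT value was 0.17 (edgeR adjusted p = 0.0552), so this call depended on the scaling.

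Psmb9, which takes the place of the caspase-like subunit Psmb6, had 132, 143 and 148 CPM for WT against 150.4, 153 and 169 CPM for cKO at 0 h, and 155, 159 and 159.7 CPM for WT against 149, 161 and 162 CPM for cKO at 48 h. All the libraries but the 0 h WT ones lay in the same range. It rose in WT by 0.16 ± 0.07 on the edge of the threshold (edgeR adjusted p = 0.0490) and was at 0.00243 ± 0.07 in cKO (edgeR adjusted p = 0.977). The WT call was lost with upper-quartile scaling (0.06, edgeR adjusted p = 0.469). It was also lost without any one of WT replicates 1 and 2 at 0 h, WT replicates 1, 2 and 3 at 48 h, cKO replicates 1 and 2 at 0 h and cKO replicate 3 at 48 h, with values of 0.12 to 0.17 (edgeR adjusted p = 0.187 at the highest). Psmb8 overlaps the exons of Gm20496 on the opposite strand over 14.7% of its length, and Tap1 and Psmb9 share 212 bases of exon on opposite strands.

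The constitutive subunits that these 3 replace rose in both genotypes. Psmb5 went from 48.0, 47.5 and 60.6 CPM to 170.4, 148 and 158 CPM in WT, and from 49.5, 52.8 and 63.7 CPM to 148, 119 and 127 CPM in cKO. Psmb6 went from 74.6 ± 3.27 to 169 ± 11.5 CPM in WT and from 74.1 ± 3.46 to 144 ± 14.6 CPM in cKO. Psmb7 went from 72.2 ± 4.63 to 217 ± 8.64 CPM in WT and from 76.4 ± 8.73 to 174 ± 20.9 CPM in cKO. For each of the 3 genes every 48 h library lay above every 0 h library of either genotype. The log2 fold changes were 1.61 ± 0.12, 1.18 ± 0.08 and 1.59 ± 0.10 for Psmb5, Psmb6 and Psmb7 in WT and 1.25 ± 0.12, 0.95 ± 0.08 and 1.19 ± 0.10 in cKO (edgeR adjusted p at or below 2.52e-07 for each). Psmb5 shares 24.9% of its 100-base stretches with other annotated genes, chiefly Gm3375, so its count is less certain.

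Ratios of immunoproteasome to constitutive counts within each library therefore dropped. Psmb8 to Psmb5 was 7.51, 8.89 and 6.64 in WT and 8.0, 7.99 and 7.70 in cKO at 0 h, against 2.76, 3.19 and 3.13 in WT and 3.01, 3.43 and 3.56 in cKO at 48 h. Psmb9 to Psmb6 averaged 1.89 ± 0.0575 in WT and 2.12 ± 0.0344 in cKO at 0 h, and 0.935 ± 0.0693 and 1.11 ± 0.155 at 48 h. Psmb10 to Psmb7 averaged 2.24 ± 0.141 in WT and 2.34 ± 0.193 in cKO at 0 h, and 0.444 ± 0.0039 and 0.553 ± 0.0254 at 48 h. No library of 48 h reached any library of 0 h in the 3 ratios. Over both genotypes the log2 changes were -1.29, -0.98 and -2.20, each with p = 0.005 (exact two-sided permutation test, the smallest p of that test, adjusted p = 0.005 over 4 ratios). As for the ratio to B2m, the libraries of the times were taken as unpaired, and with pairing by number this p is too small. Within 1 genotype, 3 against 3 libraries cannot give a p under 0.1, and each ratio had p = 0.1 by the exact permutation test in both genotypes. Gene lengths differ within a pair, so the changes of a ratio can be read and its absolute size cannot.

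**Figure D2:**
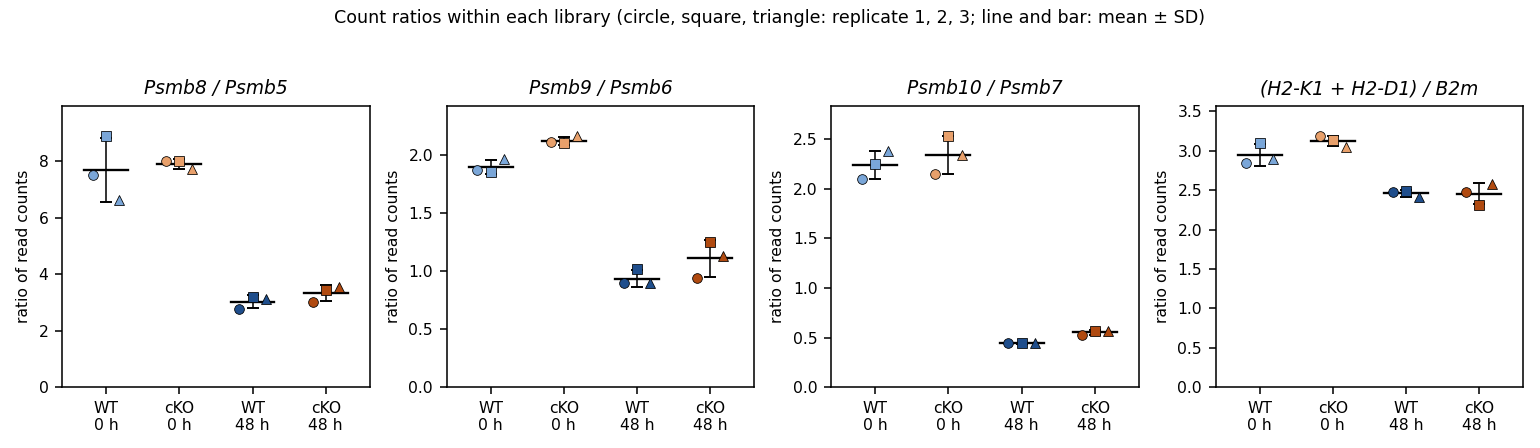
Ratios of read counts within each library for the 3 immunoproteasome subunits over the constitutive subunits they replace, and for summed H2-K1 and H2-D1 over B2m (vertical axes from 0). Symbols are libraries and the line and bar are the mean ± SD of 3 libraries. All 4 ratios are lower at 48 h in every library, with Psmb10 over Psmb7 going from about 2.24 to 0.444 in WT.

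Further genes of the pathway were read as lists. Their counts over time stand beside 36.9% of all tested genes that rose and 38.4% that fell in WT. In cKO these shares were 36.4% and 36.2%. The nonclassical class Ib genes fell alongside the classical heavy chains. Of 14 listed, 12 were tested, and 10 fell and none rose in WT, as in cKO, the median of their log2 fold changes being -1.30 and -1.20 (edgeR). Without WT replicate 3, 8 of 13 tested fell in WT, again without a share of all genes. Cd1d1, which presents lipids to NKT cells, went from 39.3 ± 0.966 to 4.24 ± 0.0344 CPM in WT, a log2 change over time of -3.21 ± 0.17 (edgeR adjusted p = 3.54e-10), and changed by -2.54 ± 0.17 in cKO (edgeR adjusted p = 3.95e-09). H2-Q4 went from 744 ± 69.7 to 323 ± 17.3 CPM in WT and from 907 ± 31.4 to 397 ± 45.7 CPM in cKO. H2-M3, which presents formylated peptides, changed by -1.40 ± 0.13 in WT, and Mr1, which presents vitamin B metabolites to MAIT cells, by -1.85 ± 0.16.

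Chaperones and trimming enzymes went the other way. Of 10 tested, 8 rose and 1 fell in WT, and 9 rose and 1 fell in cKO (edgeR), with a median of 0.69 and 0.54. Canx, the chaperone calnexin that folds new heavy chains, went from 303 ± 19.4 to 709 ± 13.1 CPM in WT, and Pdia3, the thiol oxidoreductase of the loading complex, from 290.4 ± 21.0 to 568 ± 45.7 CPM. Lap3 and Blmh, cytosolic peptidases, rose by 2.01 ± 0.09 and 1.47 ± 0.09 in WT and by 1.69 ± 0.09 and 1.47 ± 0.10 in cKO. These are general proteins of folding and peptide turnover as well as parts of the class I pathway.

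The rest of the 20S core rose with Psmb5, Psmb6 and Psmb7. Of its 11 other subunits, 10 rose and none fell in WT, and 10 rose and 1, Psmb1, fell in cKO, with medians of 1.11 and 0.97 (edgeR). Psma1, Psma4, Psma7 and Psmb2 rose by 1.56 ± 0.08, 1.66 ± 0.09, 1.34 ± 0.08 and 1.66 ± 0.10 in WT. Psmb1 had 188 ± 2.00 CPM at 0 h and 195 ± 10.4 CPM at 48 h in WT, and 192 ± 8.11 and 173 ± 5.37 CPM for cKO. Without WT replicate 3 none of the 11 was called lower in cKO. Of the 9 activators and assembly factors, 8 rose in each genotype and none fell, except that 1 fell in cKO with upper-quartile scaling. Psme3, the PA28 gamma cap of nuclear proteasomes, went from 144 ± 2.79 to 401 ± 14.5 CPM in WT, and Pomp, the chaperone of 20S maturation, from 71.3 ± 2.33 to 172 ± 6.64 CPM.

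**Figure D3:**
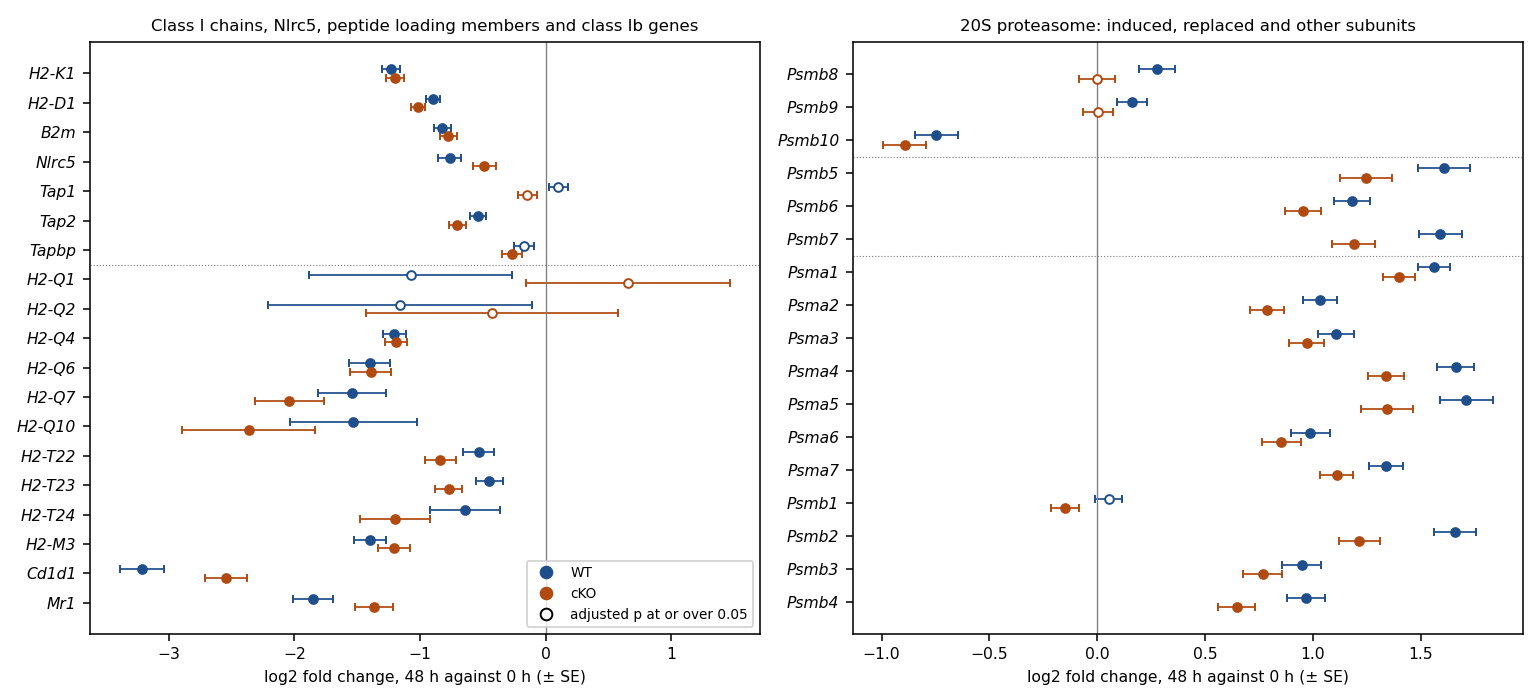
Log2 fold change from 0 h to 48 h (± SE, horizontal axis) in WT (blue) and cKO (orange). The left panel shows the heavy and light chains, Nlrc5, Tap1, Tap2 and Tapbp above the dotted line and class Ib genes below it, and the right panel shows the immunoproteasome subunits, the constitutive subunits they replace and the other 20S subunits. Open symbols did not reach an adjusted p under 0.05. Class I chains lie left of 0 and 20S subunits other than Psmb8, Psmb9, Psmb10 and Psmb1 right of it.

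Transcription factors and interferon genes moved in both directions, as the tested genes did as a whole. Of all tested genes 36.9% rose and 38.4% fell in WT, and 36.4% rose and 36.2% fell in cKO. Of 14 factors of class I and class II promoters, 4 rose and 7 fell in WT and 5 rose and 7 fell in cKO (edgeR). Irf8, an interferon regulatory factor, went from 16.7 ± 3.85 to 366 ± 16.0 CPM in WT and from 11.9 ± 1.23 to 263 ± 60.4 CPM in cKO, and Nfkb1, which encodes the p50 subunit of NF-kappaB, rose by 1.10 ± 0.08 and 1.21 ± 0.08. Rfxank, a subunit of the RFX complex that NLRC5 works with, went from 31.2 ± 1.09 to 10.4 ± 0.942 CPM in WT and from 32.6 ± 3.08 to 10.9 ± 0.781 CPM in cKO. Of 12 interferon receptor and signalling genes, 9 fell and 2 rose in WT, and 6 fell and 2 rose in cKO. Jak1, the kinase shared by the interferon receptors, went from 1522 ± 74.1 to 379 ± 25.1 CPM in WT and from 1478 ± 137 to 434 ± 20.5 CPM in cKO. Socs1, an inhibitor of that kinase, rose by 1.46 ± 0.10 and 1.37 ± 0.09.

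The 38 interferon stimulated genes gave 9 higher and 6 lower in WT and 7 higher and 23 lower in cKO (edgeR). Of all tested genes 36.9% were higher and 38.4% lower in WT, and 36.4% higher and 36.2% lower in cKO. In WT both counts of the list were thus under the share of all genes. Tested as the cKO change minus the WT change, none of the 38 was called with the groups as labelled. Without both libraries labelled cKO replicate 1, 3 were called lower, beside 3.34% of tested genes. With libraries paired over time by their number, 10 were called lower, where 21 of all tested genes were. Gbp2, a guanylate-binding protein, rose by 2.38 ± 0.14 in WT and 2.43 ± 0.14 in cKO, and Igtp, an immunity-related GTPase, by 1.71 ± 0.13 and 1.65 ± 0.12. Ddx58, the RNA sensor RIG-I, changed by -1.84 ± 0.19 and -1.97 ± 0.19. The list summed to 2277, 3067 and 2889 CPM for WT against 2471, 2947 and 4677 CPM for cKO at 0 h, so cKO replicate 3 stood above all other 0 h libraries. At 48 h the sums were 3755 to 4286 CPM in WT and 3789 to 3861 CPM in cKO.

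Markers of B cells, class II presenting cells, myeloid cells and erythroid cells were higher at 0 h. The sum over 14 B cell markers was 141 to 255 CPM in WT and 118 to 144 CPM in cKO at 0 h, and 22.9 to 37.4 CPM and 27.3 to 30.0 CPM at 48 h. In WT 14 of the 14 fell, and in cKO 13 (edgeR), beside 38.4% and 36.2% of all tested genes. The 9 class II genes summed to 474 to 682 and 465 to 487 CPM at 0 h and to 124 to 147 and 138 to 159 CPM at 48 h, with 9 of 9 lower in both genotypes. The sum of the myeloid and dendritic list was mostly Ly6c2, which CD8 T cells also express, at 104 to 189 and 143 to 442 CPM at 0 h. The 15 other genes of that list summed to 37.9 to 44.7 and 25.0 to 47.5 CPM at 0 h and to 3.25 to 5.15 and 5.88 to 8.58 CPM at 48 h, and of the whole list 12 of 14 tested were lower in WT and 10 in cKO. Csf1r, which defines macrophages, had 0 counts in the WT libraries at 48 h, and Ncr1, which defines NK cells, had 0 counts in all 48 h libraries. In the NK list Eomes, which activated CD8 T cells also express, was at 24.2 to 33.3 and 27.8 to 33.4 CPM at 0 h and 109.7 to 118 and 64.3 to 112 CPM at 48 h. The 7 other genes summed to 12.5 to 29.0 and 10.9 to 12.6 CPM at 0 h and to 27.7 to 42.0 and 19.5 to 22.6 CPM at 48 h, and 6 of the 8 genes fell and 2 rose in each genotype. The erythroid list summed to 9.59 to 102 and 57.2 to 117 CPM at 0 h and to at most 2.39 CPM at 48 h, with 8 of 8 lower. In the CD4 and regulatory T cell list Ctla4, which activated T cells express, went from at most 12.7 CPM at 0 h to 399.8 to 483 CPM in WT and 213 to 261 CPM in cKO. The 4 other genes summed to 29.6 to 49.5 and 22.5 to 27.0 CPM at 0 h and to 32.2 to 41.5 and 34.3 to 56.4 CPM at 48 h, and 2 of the 5 genes rose and 1 fell in WT while 4 rose in cKO. Setting the leading genes apart was chosen after seeing the data. The part of these cells in the fall of the class I genes was not tested.

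**Figure D4:**
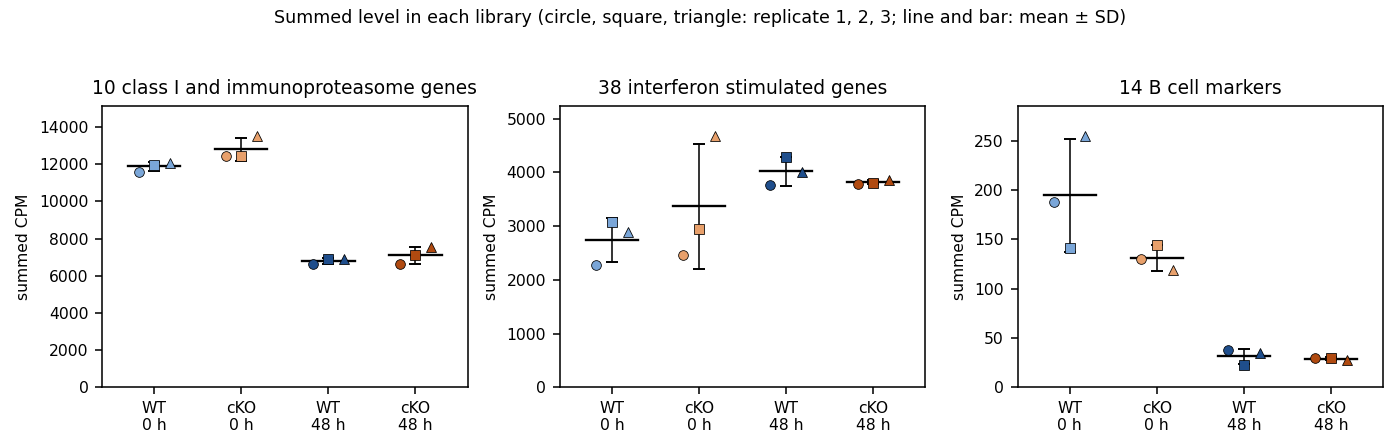
Summed level (CPM, vertical axes from 0) of the 10 class I and immunoproteasome genes, of 38 interferon stimulated genes and of 14 B cell markers in each library. Symbols are libraries and the line and bar are the mean ± SD of 3 libraries. The class I sum and the B cell sum are lower at 48 h in all libraries, and the interferon sum of cKO replicate 3 at 0 h (4677 CPM) is the highest of its time.

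Setting cKO beside WT before the interval asks whether class I genes differed from the start. None of the 10 genes was called by edgeR, nor by limma-voom or by DESeq2, which called 22 of all genes higher and 18 lower. Of all tested genes edgeR called 0.00806% higher and 0% lower, with 1163 of 12404 at an unadjusted p under 0.05. The log2 fold changes of the 10 ran from 0.04 to 0.22 with a median of 0.13, beside -0.000400 for all tested genes. Without cKO replicate 3 at 0 h B2m was at -0.0135, Tapbp at 0.00448, Psmb10 at 0.0412, Psmb8 at 0.0488 and H2-K1 at 0.0586, while H2-D1 stood at 0.13 and Tap1 at 0.17. H2-D1, H2-K1, Tap1, Tap2 and Psmb9 were higher in all 3 cKO libraries than in all 3 WT libraries, a pattern seen in 7.32% of tested genes, and none was lower in this way, beside 7.35%. Tap1 differed most, at 405 ± 28.9 CPM in WT and 472 ± 29.9 CPM in cKO, with a log2 fold change of 0.22 ± 0.07 and a 95% interval of 0.05 to 0.39 (edgeR adjusted p = 0.424). For H2-D1, at 2925 ± 36.6 and 3217 ± 69.7 CPM, the value was 0.14 ± 0.05 with an interval of 0.01 to 0.26 (edgeR adjusted p = 0.480). B2m and Nlrc5, at 0.04 and 0.06, had intervals of -0.11 to 0.19 and -0.15 to 0.28. Without both libraries labelled cKO replicate 1, again none of the 10 was called, beside 0.0949% of tested genes higher and 0.0554% lower, and the median was 0.14.

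The class Ib list also had none called at 0 h, with a median of 0.21, or 0.32 without both libraries labelled cKO replicate 1. H2-Q7, a class Ib gene that interferon raises, had 90.2, 89.5 and 84.9 CPM for WT against 105, 103 and 257 CPM for cKO, so cKO replicate 3 stood alone. That library was also the highest of the 0 h libraries for H2-K1, B2m, Tap1, Tap2, Tapbp, Psmb8, Psmb9 and Psmb10 and for the sum of interferon stimulated genes. Most marker lists of other cells had lower medians in cKO at 0 h, with no gene called. The median log2 fold change was -0.70 for B cell, -0.54 for class II, -0.44 for myeloid, -1.04 for NK and -0.67 for CD4 markers. The erythroid list went the other way, with a median of 0.99, and its sums overlapped between the genotypes. The myeloid sum, mostly Ly6c2, was 191 to 467 CPM in cKO and 149 to 227 CPM in WT. The CD4 and regulatory T cell list summed to 29.7 to 33.6 CPM in cKO, below the 35.1 to 62.3 CPM of WT. The part of these cells in the 0 h values was not tested. No interferon stimulated gene was called at 0 h with the groups as labelled, and without both libraries labelled cKO replicate 1 there was 1, Ifi44 (2.44 ± 0.42, edgeR adjusted p = 0.0477). In that fit Socs3, an inhibitor of cytokine signalling, was also called higher (0.54 ± 0.08, edgeR adjusted p = 0.0287), beside 0.0949% of tested genes higher and 0.0554% lower.

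At 48 h the largest difference among the 10 genes was in Nlrc5, which stood at 275 ± 23.4 CPM in WT and 348 ± 31.5 CPM in cKO. With the groups as labelled none of the 10 was called by edgeR, beside 3.1% of tested genes called higher and 1.09% called lower, and 2753 of 12404 at an unadjusted p under 0.05. The log2 fold change of Nlrc5 was 0.34 ± 0.09, with a 95% interval of 0.13 to 0.56 and a value just short of the threshold (edgeR adjusted p = 0.0544). All 3 cKO libraries lay above all 3 WT libraries, as in 13.2% of tested genes. DESeq2 called it (0.34, adjusted p = 0.00945), as did limma-voom (0.34, adjusted p = 0.0475). The library labelled cKO replicate 1 was the lowest of the 3 in cKO, at 313 CPM, and without both libraries of that number Nlrc5 was called higher at 0.41 ± 0.09 (edgeR adjusted p = 0.00967). Leaving out WT replicate 1 at 0 h (0.34, edgeR adjusted p = 0.0393), WT replicate 2 at 48 h (0.41, edgeR adjusted p = 0.0470) or the 48 h library labelled cKO replicate 1 (0.42, edgeR adjusted p = 0.0067) also gave a call. Leaving out any other single library gave none. Of the 48 h libraries, edgeR adjusted p was 0.132 and 0.209 without WT replicates 1 and 3, and 0.218 and 0.131 without cKO replicates 2 and 3. With only the 2 groups compared it was 0.0846. Without both libraries of WT replicate 3 the value was 0.29 (edgeR adjusted p = 0.242).

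The heavy chains and B2m followed with smaller values. The log2 difference of H2-K1 was 0.14 ± 0.07 (edgeR adjusted p = 0.265), its cKO replicates 2 and 3 lying above all WT libraries and the library labelled cKO replicate 1 among them. Without both libraries labelled cKO replicate 1 it was called higher, at 0.22 ± 0.06 (edgeR adjusted p = 0.0303), and likewise without only the 48 h library of that number (0.23, edgeR adjusted p = 0.0194). With these libraries left out, 2 of the 10 genes were thus called higher, beside 8.96% of tested genes higher and 8.78% lower. B2m was at 0.09 ± 0.07 (interval -0.07 to 0.24) and H2-D1 at 0.02 ± 0.05 (interval -0.11 to 0.14), and with those libraries left out at 0.15 ± 0.06 (edgeR adjusted p = 0.105) and 0.05 ± 0.06 (edgeR adjusted p = 0.619). Tap1, Tap2, Tapbp, Psmb9 and Psmb10 lay between -0.03 and -0.00312, each with an interval that spanned 0, and the sign of each turned in at least 1 fit with another setting or with libraries left out. Psmb8 was lower in all 3 cKO libraries (409 to 451 CPM) than in WT (471 to 495 CPM), as in 11% of tested genes, and its log2 difference was -0.14 ± 0.08 (edgeR adjusted p = 0.354), or -0.16 ± 0.08 with those libraries left out (edgeR adjusted p = 0.226).

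The constitutive subunits had lower means in cKO than in WT at 48 h, and were not called with the groups as labelled. Psmb7 was at -0.32 ± 0.10 (edgeR adjusted p = 0.0753), Psmb5 at -0.27 ± 0.12 (edgeR adjusted p = 0.191) and Psmb6 at -0.24 ± 0.08 (edgeR adjusted p = 0.116). The ratio of Psmb10 to Psmb7 was 0.441, 0.448 and 0.442 in WT and 0.524, 0.569 and 0.567 in cKO. All cKO libraries lay above all WT libraries, a log2 difference of 0.32 (exact permutation p = 0.1, the smallest that 3 against 3 allows, adjusted p = 0.4 over 4 ratios), and 0.36 without the library labelled cKO replicate 1. With both libraries labelled cKO replicate 1 left out, all 3 subunits were called lower, Psmb5 at -0.37 ± 0.11, Psmb6 at -0.31 ± 0.08 and Psmb7 at -0.42 ± 0.09 (edgeR adjusted p = 0.0418, 0.0206 and 0.00861), with 6 of the 11 other 20S subunits lower and none higher. Psmb8, Psmb9 and Psmb10 were not called there, where 8.96% of tested genes were called higher and 8.78% lower.

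**Figure D5:**
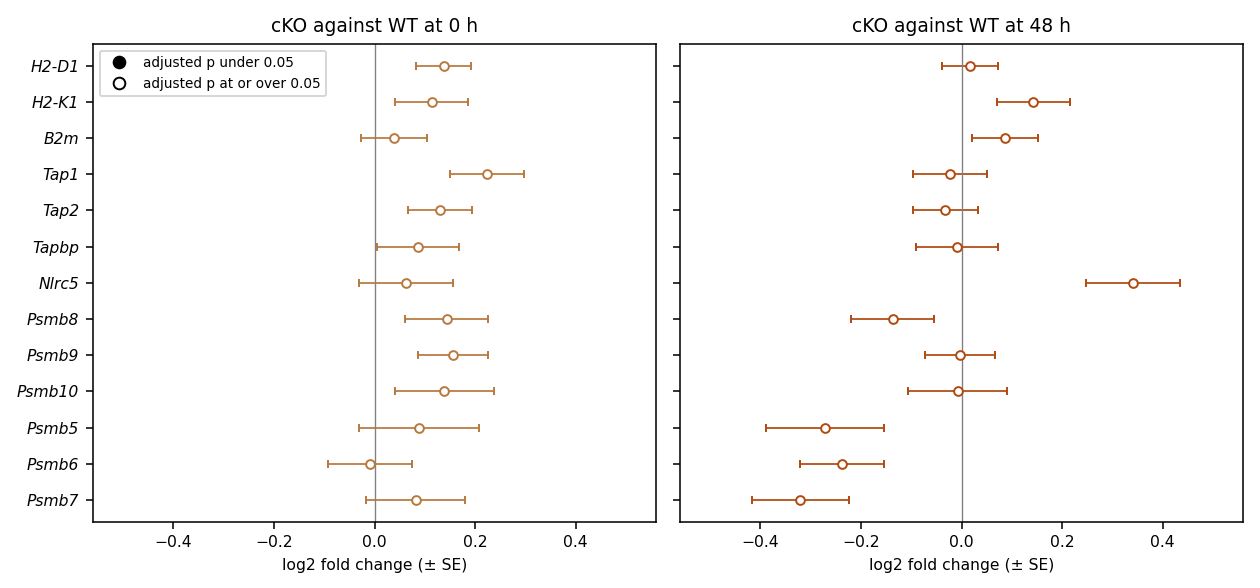
Log2 fold change of cKO against WT (± SE, horizontal axis) at 0 h (left) and 48 h (right) for the 10 genes and the 3 constitutive subunits, with the groups as labelled. Open symbols did not reach an adjusted p under 0.05, which holds for all shown. At 0 h the 10 genes lie between 0.04 and 0.22, and at 48 h Nlrc5 lies highest at 0.34 and Psmb7 lowest at -0.32.

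The other pathway lists at 48 h held 1 call with the groups as labelled, Rfxap, a subunit of the RFX complex, at 22.2 ± 2.06 CPM in WT and 16.6 ± 2.08 CPM in cKO (-0.42 ± 0.11, edgeR adjusted p = 0.0429). Without both libraries of WT replicate 3 its list held no call. With both libraries labelled cKO replicate 1 left out, more genes of the pathway were called, beside 8.96% of all tested genes higher and 8.78% lower. In the class Ib list 4 of 13 tested were higher and none lower, namely H2-Q4 (0.39 ± 0.08), H2-M3 (0.50 ± 0.09), Cd1d1 (0.72 ± 0.17) and Mr1 (0.55 ± 0.17). Among chaperones and trimming enzymes 5 of 10 were lower, with Calr at -0.48 ± 0.08, Canx at -0.45 ± 0.07 and Pdia3 at -0.41 ± 0.08, and 1 higher, Tapbpl, a tapasin-like peptide editor (0.26 ± 0.06). Of the interferon receptor and signalling genes, Jak2 (0.58 ± 0.09), Ifngr2 (0.42 ± 0.11) and Ifnar1 (0.25 ± 0.07) were called higher. Of the 38 interferon stimulated genes none was called, with a median of -0.17. With the groups as labelled, 3.1% of all tested genes were called higher and 1.09% lower. Of the marker lists in that fit, 2 of 14 tested myeloid and dendritic markers, 1 of 9 class II genes and 1 of 8 CD8 T cell genes were called higher in cKO and Ctla4 of the 5 CD4 and regulatory T cell markers was called lower, while the B cell sums of the genotypes overlapped. The part of these cells in the 48 h values was not tested.

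Whether the change over time differed between the genotypes was tested as an interaction, the cKO change minus the WT change. None of the 10 genes was called, beside 0.105% of tested genes called higher and 0.00806% lower, and 2073 of 12404 had an unadjusted p under 0.05. Nlrc5 was at 0.28 ± 0.13 (interval -0.03 to 0.58, edgeR adjusted p = 0.305), Psmb8 at -0.28 ± 0.12 (interval -0.55 to -0.00968, edgeR adjusted p = 0.247) and Tap1 at -0.25 ± 0.10 (interval -0.49 to -0.00474, edgeR adjusted p = 0.254). The rise of Psmb8 and Psmb9 in WT was therefore not shown to differ from their course in cKO. Without both libraries labelled cKO replicate 1 the 10 genes again gave no call, with Psmb8 at -0.37 ± 0.12 (edgeR adjusted p = 0.0811) and Nlrc5 at 0.39 ± 0.13 (edgeR adjusted p = 0.0905), while 3.53% of tested genes were called higher and 3.34% lower. Under DESeq2 and limma-voom none of the 10 was called either, though DESeq2 called 316 of all genes higher and 133 lower.

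The genes whose log2 level followed Nlrc5 most closely over the 12 libraries were Prkdc, the DNA-dependent protein kinase (Pearson r = 0.983), Ankrd11, a chromatin regulator (0.980), Ift80 (0.980), Cntrl (0.979) and Glyctk (0.979). Mean CPM of Prkdc was 132 for WT and 125 for cKO before the interval, and 57.8 and 76.9 after it. Mean CPM of Ankrd11 was 536 and 552 before and 268 and 372 after. All 5 had a higher mean in cKO than in WT at 48 h, as Nlrc5 had, and at 0 h Prkdc alone had the higher mean in WT. The 5 were picked for following Nlrc5 over these same libraries, so a pattern shared with Nlrc5 follows from the choice. None of the 5 is a gene of the class I pathway as listed here. The libraries fall into 2 clusters by time, so these values describe the step between the times above all, and no p is given.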

How the data were processed

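RNA from 12 libraries of splenic CD8 T cells was extracted with TRIzol and made into NEBNext Ultra libraries, per the labels' protocols. The deposited values were raw counts of reads per gene. The submitters' processing notes name fastp 0.20.1, FastQC 0.11.9, HISAT2 2.1.0, SAMtools 1.9, HTSeq 0.11.2 and GRCm39, and the strand setting is not given in the sources used here. Groups came from the labels.

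Counts were fitted in edgeR 4.0.16 (R 4.3.3) by the quasi-likelihood test, in 1 model of 4 groups with TMM scaling. Genes were kept by filterByExpr at its count minimum of 10, which left 12404 of 16352, and Benjamini-Hochberg adjusted p was taken over all of them with 0.05 as threshold. Ratios were tested by exact two-sided permutation. DESeq2 1.42.0, limma-voom 3.58.1, other scalings and filters, and fits without libraries were alternatives. The edgeR fit was tested on simulated data. Total counts were 34341847 to 40270659 per library. The 10 genes and the gene lists were chosen with earlier results of these data known. Named genes were the targeted gene, all 10 members, up to 4 genes of smallest adjusted p per pathway list and comparison (3 for interferon stimulated genes), the first markers of each cell list, and the 5 genes outside the members most correlated with Nlrc5. H2-Q7, Psmb1, Ifi44, the Y-linked genes and the genes named for fits without the libraries labelled cKO replicate 1 fall outside that rule or were chosen after their values were seen. One gene of the interferon signalling list, and a motif, are not reported here.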

Additional observations from a re-analysis of the deposited data

How the results depend on the processing

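The fall of H2-K1, H2-D1, B2m, Nlrc5, Tap2 and Psmb10 over time is the result with the firmest counts, and the genotype comparisons rest on 3 libraries a group, 1 of which goes against its label. The replicate block grouped libraries of the same number, across genotypes for cKO against WT and across times for a change over time. The count of members called higher at 48 h in cKO against WT was 0 as reported. It was 1 with upper-quartile scaling, with no filter on low counts, with a filter at a mean of 1 CPM, with DESeq2, with limma-voom and with the replicate block, 2 without both libraries labelled cKO replicate 1, and 0 to 2 with 1 library left out. The count called higher over time in WT was 2 as reported, 0 with upper-quartile scaling, 1 with no filter, without both libraries of WT replicate 3 and with the replicate block, and 1 to 2 with 1 library left out. The count called lower over time was 6 as reported in WT and 6 to 7 in the alternatives, 7 as reported in cKO and 6 to 8 in the alternatives. The share of all genes called is given for only some of these fits, and elsewhere a count of members stands without it. With the replicate block Tapbp was called lower in WT (-0.17, edgeR adjusted p = 0.0441). The causes were not tested.

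Log2 fold changes near 0 changed sign. For cKO against WT at 48 h, upper-quartile scaling gave Tapbp 0.00755, Psmb9 0.0151 and Psmb10 0.00927, leaving out both libraries labelled cKO replicate 1 gave Tap1 0.000473 and Psmb9 0.0345, and leaving out both of WT replicate 3 gave Psmb9 0.000288. Over time, upper-quartile scaling gave Tap1 -0.0026 in WT and Psmb9 -0.0888 in cKO, and the 1 CPM filter gave Psmb9 -0.000507 in cKO. Psmb8 in cKO was 0.0112 with RLE scaling, 0.00176 with no filter, 0.0126 with DESeq2, 0.00243 with limma-voom, 0.00113 with only the groups compared, 0.00414 without WT replicate 3 and 0.00218 with the replicate block. The log2 difference of Psmb8 to Psmb5 at 0 h was -0.0491 without WT replicate 3.

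With 1 library or 1 replicate number left out, values ran at 0 h from -0.0251 to 0.130 for Nlrc5, from -0.0135 to 0.0665 for B2m and from -0.0491 to 0.162 for Psmb8 to Psmb5. At 48 h they ran from -0.0669 to 0.0441 for Psmb10, -0.0535 to 0.0310 for Tap1, -0.0394 to 0.0314 for Tapbp, -0.0143 to 0.0403 for Psmb9, -0.0507 to 0.00202 for Tap2, -0.0335 to 0.0553 for H2-D1 and -0.0376 to 0.0414 for heavy chains to B2m. Over time in cKO they ran from -0.0869 to 0.0926 for Psmb8 and -0.0292 to 0.0568 for Psmb9, and the interaction of H2-K1 from -0.0387 to 0.111.

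Genes called higher and lower at 48 h in cKO numbered 384 and 135 of all tested, 702 and 352 with DESeq2, 82 and 56 with only the groups compared, 1133 and 1110 without both libraries labelled cKO replicate 1, 15 and 1 without both of WT replicate 3, and 633 and 641 with the replicate block. Libraries of the same number correlated at 0.0903 to 0.218 in WT and 0.0749 to 0.0955 in cKO, so the numbers were not taken to pair them. The column names of the counts repeat each sample number at both times, and no label says what the number marks. Each library correlated best with its own number within a genotype, a hint from the data that the libraries may be paired over time. WT replicate 3 and the libraries labelled cKO replicate 1 kept their traits at both times, a further such hint. In the genotype comparison the block instead tied WT and cKO libraries of the same number, and no label pairs these. At 48 h these correlated at 0.00843 to 0.308 for the same number and -0.345 to 0.266 for other numbers. With the block, the calls at 48 h in cKO against WT were 1 higher and 11 lower of the interferon stimulated genes, 2 higher of the class Ib genes, 3 lower of the constitutive subunits, 2 lower of the other 20S subunits, 2 lower of the transcription factors, 1 lower of the peptide loading genes, and 2 higher and 1 lower of the interferon signalling genes.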
